A study of Mus musculus with 8 samples.

Results

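The enzymes described here were 9 genes that take fatty acids off phospholipids or lysophospholipids: Pla2g4a, Pla2g6, Pla2g7, Pla2g12a, Pla2g15, Pnpla6, Pnpla8, Lypla1 and Lypla2. They were chosen by function, as phospholipases A2 and lysophospholipases, and their probes were found through the RefSeq accession that the array gives for each non-control probe. All 9 genes had a probe, 14 probes in all, and 8 of them had a probe that passed the filter on dim probes, out of 14848 genes with such a probe. RNA came from photoreceptor cells isolated from C57BL/6 mice at postnatal day 8, either heterozygous (HZ) or homozygous (KO) for a deletion of Lpcat1, with 4 arrays for each genotype. Lpcat1 encodes an acyltransferase that puts a fatty acid onto lysophosphatidylcholine. The deletion was carried by the whole animal, the line had been crossed to C57BL6/J so that no mouse was homozygous for the rd8 allele, and in both groups the cells were taken out of dissociated retina with magnetic beads against the surface protein CD73. The controls therefore carried 1 deleted copy themselves, and there was no wild-type group on these arrays. The labels do not say whether replicates came from separate mice, so p-values measure only the spread between these samples, which may be technical.

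Membrane phospholipids are rebuilt through a cycle. A phospholipase A2 removes the fatty acid from the middle position of the glycerol backbone and leaves a lysophospholipid, and a lysophospholipid acyltransferase such as LPCAT1 then attaches a new acyl chain, while a lysophospholipase instead degrades the lysophospholipid further. Photoreceptor outer segments are rich in phosphatidylcholine, and part of it in this cell type carries docosahexaenoic acid or, through LPCAT1, palmitic acid on both positions. The comparison between KO and HZ cells at this age asks whether transcripts of the enzymes on the removing side of the cycle differ when the adding side lacks LPCAT1.

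Levels are given as the log2 of the array's processed signal minus the 75th percentile of that signal on the same array, so 0 is the level of a probe at the 75th percentile. Values of different probes are not compared with each other, because probes differ in how brightly they hybridize. A difference is the mean of the 4 KO arrays minus the mean of the 4 HZ arrays, in log2 units. It was tested with limma over 34303 probes that passed the software's background call ("well above background") on 4 or more arrays. Adjusted p-values are Benjamini-Hochberg values over all of them. A gene with several tested probes is reported by its brightest one on average.

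The 75th-percentile signals were 882 to 1024, the scanner software called 59.5% to 64.6% of the 56605 probes clearly brighter than background, and array-to-array correlations were 0.974 to 0.992. The software flagged 458 spots as non-uniform on HZ replicate 4, against 2 to 25 on the other arrays. In all, 657 outlier spots were dropped on that array, against 86 to 194 on the others. All 8 arrays lay on 1 slide, with the KO samples in its first row and the HZ samples in its second, so slide row and genotype cannot be told apart. The replicate number was also the slide column, so that a KO array and an HZ array of the same number lay in the same column. The single tested probe for Lpcat1 did not separate the labels. It read -0.81, -0.95, -1.02 and -1.17 on HZ arrays 1 to 4 and -0.97, -1.16, -1.11 and -0.85 on KO arrays 1 to 4, and the difference was -0.037 (SE 0.11, limma adjusted p = 0.931). Whether that probe lies in the deleted part of the gene is not given in the sources used here. The genotype of each array therefore rests on its label, and HZ and KO below stand for arrays labelled HZ and KO. Of 28 markers of the retinal pigment epithelium (RPE), 26 were tested and 25 of those read lower in KO, with a median difference of -0.99, and 13 passed the looser threshold described below. Lrat and Slc45a2 were not tested. The summed linear level of the 26 tested RPE markers, in units of each array's 75th percentile, was 138 to 169 in HZ and 137 to 147 in KO. Most of that sum came from Otx2, which is also listed as a bipolar cell marker and was the 1 gene of the list that read higher in KO (0.12). Without Otx2, a choice made after its values were seen, the sums were 21.6 to 48.5 in HZ and 10.9 to 18.4 in KO, and did not overlap. Of 18 microglia markers, 17 were tested, all but Ptprc, and 16 read higher in KO with a median of 0.75. Of these 1 passed, Tmem119, whose dim probe was well above background on only 1 HZ and 3 KO arrays. Its difference was 0.76, and 0.19 under normexp background correction, which is under 1.5-fold. The sums over the microglia list were 7.05 to 12.1 in HZ and 8.34 to 13.5 in KO. All 21 rod photoreceptor markers were tested, 16 read lower in KO with a median of -0.11, and none passed the looser threshold. The sums over the rod list were 1520 to 1846 in HZ and 1455 to 1702 in KO. Other lists leaned too: 12 of 14 bipolar cell markers (median -0.38) and 12 of 16 Muller glia markers (median -0.20) read lower in KO, 10 of 11 cone markers (median 0.17) read higher, and the 3 tested red blood cell markers all read higher (median 1.58), each at an unadjusted p under 0.05 in limma and with adjusted p-values of 0.574 to 0.595. Because each array holds RNA of a mixed preparation, fewer cells of a type and less RNA per cell cannot be told apart.

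No member passed any of the 3 thresholds used for KO against HZ in limma. At a fold above 1.5 with an adjusted p under 0.5, 0 of 8 members passed, where 0.813% of all tested probes passed as lower in KO and 0.227% as higher. At a fold above 1.2 with an adjusted p under 0.05, 0 members passed, and so did 0% of all tested probes. At an unadjusted p under 0.05, 0 members passed in limma, against backgrounds of 3.48% lower and 4.69% higher. The methods' t-test at the same unadjusted threshold passed 2, Pla2g6 and Pla2g15. The smallest unadjusted p among the members was 0.0580 and their adjusted p-values ran from 0.622 to 0.983, while the smallest adjusted p over all probes was 0.158. In the estimates, 6 members were higher in KO and 2 lower, with a median difference of 0.13, against 0.0023 over all tested probes and 0.029 over the reporting probes of all genes. The estimate was under 1.2-fold for 7 of the 8, as it was for 77.2% of all tested probes. The 95% intervals were 0.37 to 1.97 log2 units wide. The highest upper end among them corresponded to a 1.49-fold level in KO and the lowest lower end to a 0.38-fold level. Both ends belonged to the interval of Pnpla8.

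**Figure D1:**
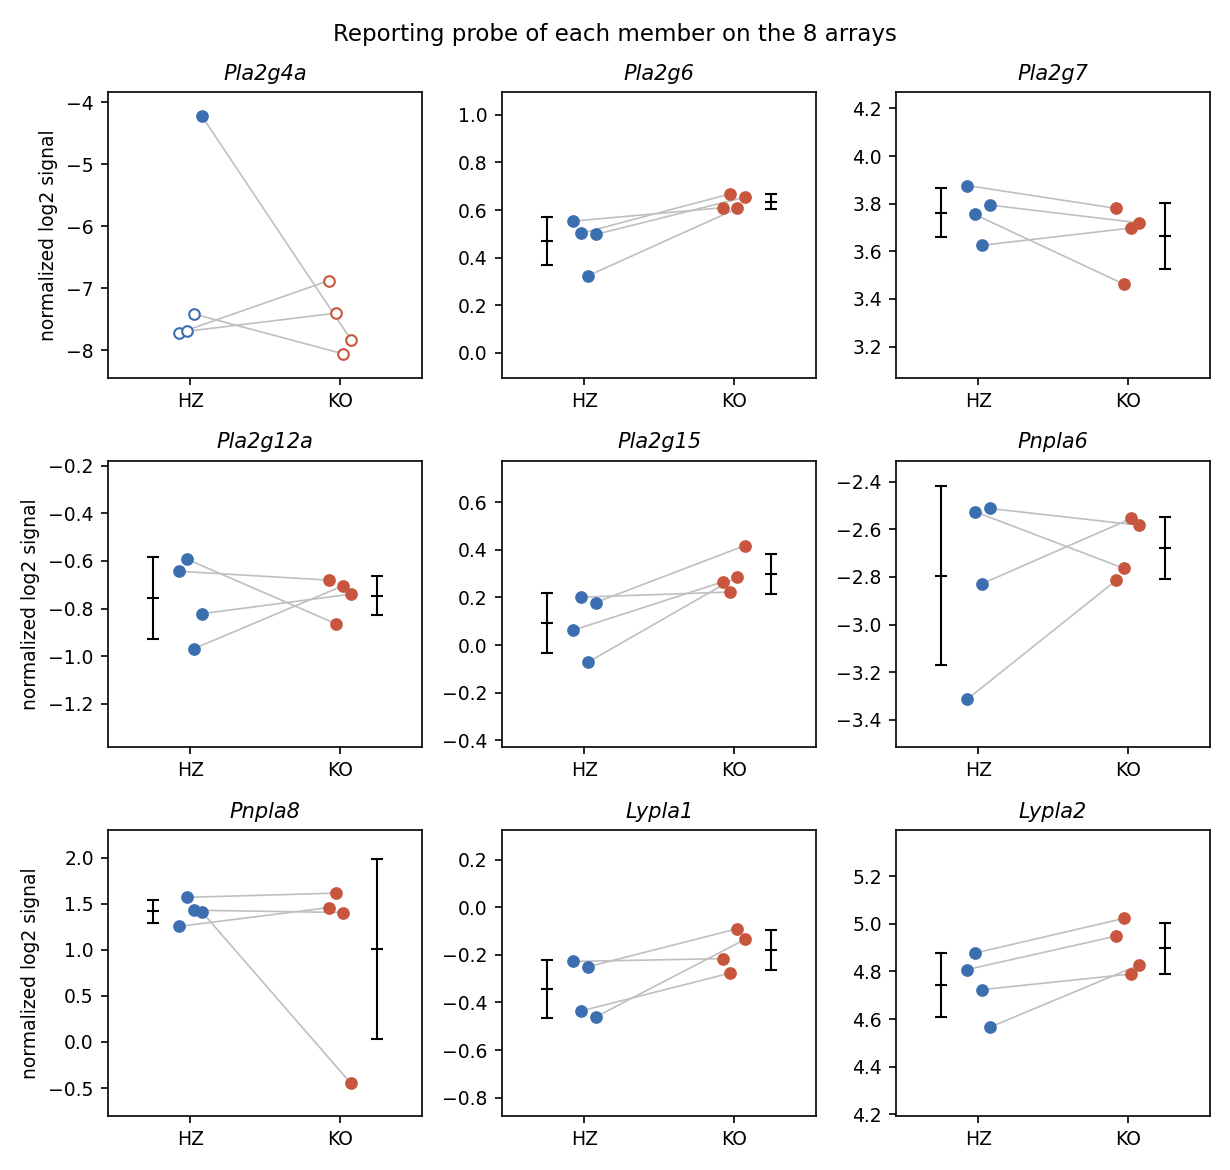
Normalized log2 signal of each member's reporting probe on the 4 HZ and 4 KO arrays (Pla2g4a by its only probe). Points are arrays, open where the probe was not well above background, grey lines join arrays of the same replicate number, black bars are mean ± SD (not drawn for Pla2g4a, which was not tested), and the vertical scale differs between panels. Pla2g6 and Pla2g15 are the 2 members whose KO points all lie above their HZ points, and KO replicate 4 sits alone at -0.45 for Pnpla8.

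The groups did not overlap for 2 members, Pla2g6 and Pla2g15, both higher in KO, and for 0 members in the other direction. Over all tested probes 4.19% had all KO arrays above all HZ arrays and 2.14% the reverse. Within replicate numbers, 4 members were higher in KO in 4 of 4 pairs (Pla2g6, Pla2g15, Lypla1 and Lypla2) and 0 were lower in 4 of 4, where the background was 14.8% and 10.4%. RefSeq promoter windows were matched for 8 of the 9 genes, Lypla1 being without one. Those of Pla2g6, Pla2g15 and Lypla2 are shown because these members were higher in KO in every pair. Each sequence below is the 250 bases before the start in GRCm38.p6, read 5′ to 3′ on the gene's strand. Capitals mark matches, on either strand, to a GC box (GGGCGG) or a CCAAT box (CCAAT). The Pla2g6 window is chr15:79328372-79328621 on the minus strand, that of Pla2g15 is chr8:106150104-106150353 on the plus strand and that of Lypla2 is chr4:135972595-135972844 on the minus strand.

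Pla2g6: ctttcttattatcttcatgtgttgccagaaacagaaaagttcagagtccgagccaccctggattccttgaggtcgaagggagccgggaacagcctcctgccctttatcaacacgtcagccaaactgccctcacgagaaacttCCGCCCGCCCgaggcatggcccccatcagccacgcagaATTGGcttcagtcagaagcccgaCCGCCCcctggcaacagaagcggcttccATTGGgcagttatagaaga

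Pla2g15: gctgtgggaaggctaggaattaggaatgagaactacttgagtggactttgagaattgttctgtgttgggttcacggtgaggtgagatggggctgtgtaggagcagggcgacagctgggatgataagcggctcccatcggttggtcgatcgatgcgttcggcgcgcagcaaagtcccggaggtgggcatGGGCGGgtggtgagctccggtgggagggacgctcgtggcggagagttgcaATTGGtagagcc

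Lypla2: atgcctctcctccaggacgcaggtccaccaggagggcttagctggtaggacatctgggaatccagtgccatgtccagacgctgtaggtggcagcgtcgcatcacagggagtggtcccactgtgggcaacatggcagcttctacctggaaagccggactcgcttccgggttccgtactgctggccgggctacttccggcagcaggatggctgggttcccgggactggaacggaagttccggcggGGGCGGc

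The Pla2g6 window held 3 GC box matches, a pair of which overlap in the first capital run, and 2 CCAAT matches. The Pla2g15 window held 1 of each, and the Lypla2 window held 1 GC box match at its end next to the start site. Members not shown held such matches too. A GC box match stood in a window of Pla2g7, Pnpla6 and Pnpla8, and a CCAAT match in a window of Pla2g12a and Pnpla6. The windows of Pla2g4a held neither. Among all 32851 windows of the same length, 32.7% held a GC box match and 33.8% a CCAAT match, so these letters are common before start sites. None of the 11 windows of the 8 genes held TAATCC, the core read by the photoreceptor factor CRX, or the E-box CACGTG, which 6.25% and 6.02% of all windows held. A TATAAA match stood in 1 of the 11, a window of Pla2g4a, against 12.4% of all.

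Among the calcium-independent and patatin-like enzymes, Pla2g6 encodes a phospholipase A2 that acts without calcium and is known for its part in membrane repair and in inherited neurodegeneration. Its reporting probe, designed on NM_001199023, read 0.55, 0.50, 0.32 and 0.50 on HZ arrays 1 to 4 and 0.61, 0.67, 0.61 and 0.65 on KO arrays 1 to 4. The lowest KO array was above the highest HZ array by a small margin, and HZ replicate 3 was the lowest of all. The difference was 0.17 (SE 0.081, 95% interval -0.020 to 0.35, limma adjusted p = 0.640), a 1.12-fold level in KO. The KO arrays spread less (SD 0.031, n = 4) than the HZ arrays (SD 0.10, n = 4). A second probe, on NM_016915, read -0.02, -0.12, -0.20 and 0.07 in HZ and 0.03, 0.15, 0.07 and 0.20 in KO. On this probe the groups overlapped, but all 4 pairs again had the KO array higher. Its difference was 0.18 (SE 0.090, adjusted p = 0.647), and across the 8 arrays the probes had a Pearson r of 0.878, given as a description since they were read on the same arrays.

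Pnpla6 encodes neuropathy target esterase, a lysophospholipase of the endoplasmic reticulum that breaks down lysophosphatidylcholine. Its probe read -3.31, -2.53, -2.83 and -2.51 in HZ and -2.81, -2.76, -2.55 and -2.58 in KO. The groups overlapped, HZ replicate 1 was the lowest array, and 2 of the 4 pairs had KO higher. The difference was 0.12 (SE 0.18, 95% interval -0.30 to 0.54, adjusted p = 0.865) and turned to -0.056 without HZ replicate 1. Under normexp it was 0.23.

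Pnpla8 encodes a calcium-independent phospholipase A2 of mitochondria and peroxisomes. Its reporting probe read 1.25, 1.57, 1.43 and 1.41 in HZ and 1.46, 1.61, 1.40 and -0.45 in KO. On 7 arrays the values lay within a narrow band and KO replicate 4 stood alone below them. The difference of -0.41 (SE 0.43, 95% interval -1.39 to 0.57, adjusted p = 0.793) came to 0.076 without that array. Under normexp it was -0.76, with 0 of 4 pairs higher in KO. The second probe for the gene read -0.89, -0.85, -0.91 and -0.86 in HZ and -0.88, -0.79, -0.73 and -0.80 in KO, with no array apart. There the difference was 0.076 (SE 0.073, adjusted p = 0.779) and KO was higher in 4 of 4 pairs. The reporting probe minus the second probe was 2.14 to 2.42 on the other 7 arrays and 0.35 on KO replicate 4. On that array, 75 tested probes were lower than on every other array by more than 1.5, against 3 to 63 on the others.

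**Figure D2:**
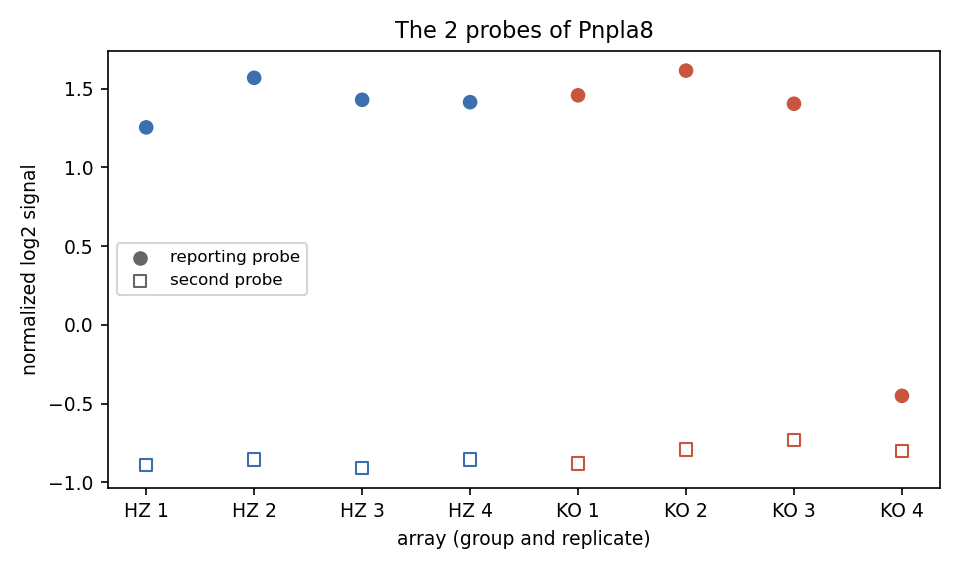
Normalized log2 signal (vertical axis) of the reporting probe (filled circles) and the second probe (open squares) of Pnpla8 on each of the 8 arrays, HZ in blue and KO in red. The reporting probe lies 2.14 to 2.42 above the second probe except on KO replicate 4, where it is at -0.45 and the second probe at -0.80.

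Of the secreted enzymes, Pla2g7 encodes the plasma-type platelet-activating factor acetylhydrolase, which also cleaves oxidized phospholipids. Its reporting probe read 3.88, 3.75, 3.63 and 3.79 in HZ and 3.78, 3.46, 3.70 and 3.72 in KO. KO replicate 2 was the lowest array, and 3 of 4 pairs had KO lower. The difference was -0.098 (SE 0.10, 95% interval -0.33 to 0.13, adjusted p = 0.789). A pair of further probes on the same accession gave -0.056 (SE 0.17, adjusted p = 0.934) and 0.033 (SE 0.090, adjusted p = 0.925), so the probes did not share a sign. The first of these also had its lowest value on KO replicate 2, at 2.16. Pla2g12a encodes a secreted phospholipase A2 of low catalytic activity. It read -0.64, -0.59, -0.97 and -0.82 in HZ and -0.68, -0.86, -0.70 and -0.74 in KO, with the KO values inside the range of the HZ values. The difference was 0.0094 (SE 0.11, 95% interval -0.23 to 0.25, adjusted p = 0.983), the smallest among the members, and its sign turned under small changes of processing. Under normexp it was 0.18.

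Pla2g15 encodes the lysosomal phospholipase A2, an enzyme of membrane breakdown that is also abundant in macrophages. It read 0.06, 0.20, -0.07 and 0.18 in HZ and 0.27, 0.22, 0.29 and 0.42 in KO. The lowest KO array was just above the highest HZ array, and the pair differences were 0.20, 0.022, 0.36 and 0.24 for replicates 1 to 4. The difference was 0.21 (SE 0.093, 95% interval -0.0088 to 0.42, adjusted p = 0.622), a 1.15-fold level in KO and the largest estimate above 0 among the members. The same direction did not hold under normexp background correction, where the difference was -0.11 and 1 of 4 pairs had KO higher. Of the microglia markers, 16 of 17 also read higher in KO, as given above, and their part in this value was not tested.

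The cytosolic, calcium-dependent enzyme Pla2g4a, which releases arachidonic acid for eicosanoid synthesis, was not tested. Its only probe was well above background on 1 array, HZ replicate 4, at -4.22. It read -7.72, -7.69 and -7.42 on the other HZ arrays and -6.88, -7.40, -8.06 and -7.83 on the KO arrays, none of them well above background. In the processed signal this was 47.3 against 3.43 to 7.64. Dim probes in general read higher on HZ replicate 4: the median over 14216 probes never well above background was -6.93 there and -7.80 to -7.43 on the other arrays, and 211 tested probes were higher than on every other array by more than 1.5, against 5 to 79. No fold is given for Pla2g4a.

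Lypla1 and Lypla2 encode related cytosolic serine hydrolases, named lysophospholipases and known also as acyl-protein thioesterases that remove palmitate from proteins. Lypla1 read -0.23, -0.44, -0.25 and -0.46 in HZ and -0.22, -0.28, -0.09 and -0.14 in KO. The groups overlapped, while the pair differences were 0.012, 0.16, 0.16 and 0.33. The difference was 0.16 (SE 0.092, 95% interval -0.048 to 0.38, adjusted p = 0.678). The second Lypla1 probe read -0.11, -0.34, -0.49 and -0.30 in HZ and -0.10, -0.30, -0.17 and -0.42 in KO, a difference of 0.064 (SE 0.11, adjusted p = 0.879) with 3 of 4 pairs higher. The probes followed each other loosely over the 8 arrays (r = 0.217). Lypla2 read 4.81, 4.88, 4.72 and 4.57 in HZ and 4.95, 5.02, 4.79 and 4.83 in KO, overlapping, with pair differences of 0.14, 0.15, 0.066 and 0.26. Its difference was 0.15 (SE 0.10, 95% interval -0.076 to 0.38, adjusted p = 0.707).

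**Figure D3:**
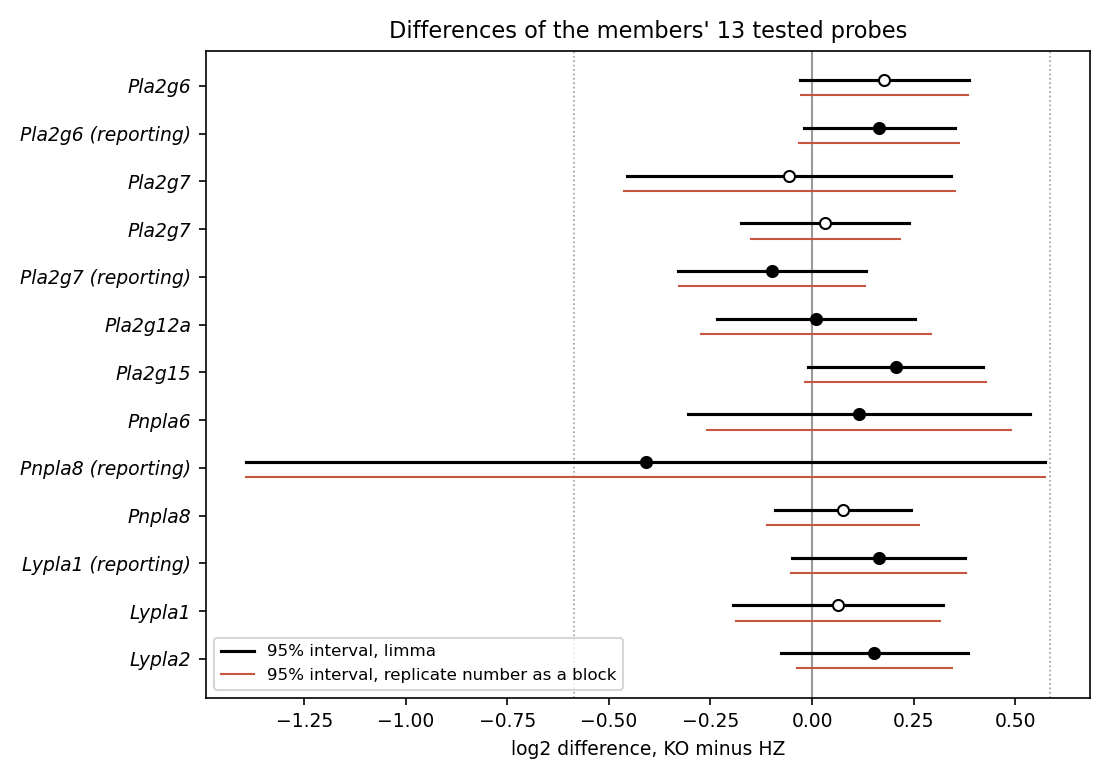
Differences (KO minus HZ, log2 units, horizontal axis) for the 13 tested probes of 8 members. Circles are estimates, filled for reporting probes and open for the others, black lines are 95% intervals from limma, red lines the intervals of the fit blocked on replicate number, and dotted lines mark a 1.5-fold change. Every interval includes 0, and the reporting probe of Pnpla8 has the widest.

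The related genes were counted in 5 lists fixed by function. The list of other phospholipases A and B held 39 genes, of which 24 were tested, 11 higher and 13 lower in KO with a median of -0.057. At the looser threshold 2 passed, both lower. Pla2g5, a secreted phospholipase A2, read 3.84, 3.75, 3.57 and 3.65 in HZ and 3.02, 3.35, 2.00 and 1.52 in KO. The groups did not overlap, and KO replicates 3 and 4 were the lowest. The difference was -1.23 (SE 0.38, adjusted p = 0.487), but a second tested probe for Pla2g5 gave 0.12 (SE 0.11, adjusted p = 0.770), and the mean of its probes did not pass. Plbd1, a phospholipase B of lysosomes and granules, had means of -3.14 ± 0.50 in HZ and -4.11 ± 0.39 in KO (SD, n = 4), a difference of -0.97 (SE 0.28, limma adjusted p = 0.459) that was -0.52 under normexp and no longer passed. The groups of Plbd1 overlapped, with KO replicate 3 at -3.71 above HZ replicate 2 at -3.87. Plaat1, the gene with the next largest estimate, differed by -0.37 (SE 0.61, adjusted p = 0.868). Its difference was 0.12 without KO replicate 1 and -0.85 without HZ replicate 1, the arrays on which its probe was not well above background. Plaat3, a phospholipase A that degrades organelle membranes in the lens, passed the unadjusted threshold alone, at -0.27 (SE 0.12, adjusted p = 0.610).

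Among 18 other lysophospholipid hydrolases, 17 were tested, 8 higher and 9 lower, with a median of -0.039, and 1 passed the looser threshold. Enpp2, which encodes autotaxin, the secreted enzyme that turns lysophosphatidylcholine into lysophosphatidic acid, read -0.67, -1.39, -1.25 and -0.92 in HZ and -2.53, -2.31, -2.67 and -3.56 in KO. Every KO array was below every HZ array. The difference was -1.71 (SE 0.28, adjusted p = 0.287). Enpp2 also stands in the RPE marker list, whose median was -0.99 and whose defining gene Rpe65 differed by -2.38 (SE 0.54, adjusted p = 0.368). The part of RPE transcripts in the Enpp2 value was not tested. Pnpla7, a lysophospholipase related to Pnpla6, had means of -0.10 ± 0.072 in HZ and 0.20 ± 0.11 in KO (SD, n = 4), a difference of 0.30 (SE 0.088) with an unadjusted p of 0.00891 and an adjusted p of 0.465 in limma, under 1.5-fold. The endocannabinoid hydrolases Faah and Abhd6 differed by 0.32 (SE 0.18, adjusted p = 0.674) and -0.33 (SE 0.17, adjusted p = 0.648). A second tested probe for Abhd6 gave -0.055 (SE 0.11, limma adjusted p = 0.891).

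All 6 protein depalmitoylation enzymes were tested, the functional neighbours of Lypla1 and Lypla2. In the estimates 3 were higher and 3 lower, the median was 0.027, and 0 passed the looser threshold. Abhd17a, a thioesterase of palmitoylated membrane proteins, read 3.63, 3.78, 3.48 and 3.42 in HZ and 3.79, 3.92, 3.83 and 3.93 in KO. The groups did not overlap, and the difference of 0.29 (SE 0.10, adjusted p = 0.533) passed only the unadjusted threshold. Abhd17c differed by 0.24 (SE 0.18, adjusted p = 0.739) and by -0.12 under normexp. Ppt1, the lysosomal palmitoyl-protein thioesterase, differed by -0.12 (SE 0.10, adjusted p = 0.758) and by 0.012 under normexp. Further tested probes for Ppt1 gave 0.078 (SE 0.35, limma adjusted p = 0.957) and -0.14 (SE 0.13, limma adjusted p = 0.783), so its probes did not share a sign.

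The eicosanoid synthesis enzymes use the fatty acid that phospholipases A2 release. Of 19 genes 12 were tested, 8 higher and 4 lower with a median of 0.074, and 1 passed the looser threshold. Ptgds, the lipocalin-type prostaglandin D synthase, read 2.89, 1.71, 2.08 and 2.21 in HZ and 1.19, 0.77, 0.85 and -0.16 in KO. The groups did not overlap, and the difference was -1.56 (SE 0.33, adjusted p = 0.362). Ptgs1, the constitutive cyclooxygenase, differed by 1.09 (SE 0.44, adjusted p = 0.591, or 0.308 in the blocked fit, which passes), and by 0.23 under normexp. Its values were -4.94, -4.55, -4.47 and -3.27 in HZ and -3.69, -3.77, -3.17 and -2.23 in KO. These groups overlapped through HZ replicate 4. Ptgis, the prostacyclin synthase, differed by -1.01 (SE 0.39, adjusted p = 0.581, or 0.425 in the blocked fit, which passes), and by -0.45 under normexp. Aloxe3, an epidermal-type lipoxygenase, differed by 0.20 (SE 0.077, adjusted p = 0.568) and passed the unadjusted threshold alone. The part of the cell type markers given above in these values was not tested. The 4 genes past the looser threshold in the related lists were Pla2g5, Plbd1, Enpp2 and Ptgds. Dropping HZ array 1 or 3, or KO array 3 or 4, took that call from all of them. Pla2g5 and Plbd1 also lost it on dropping HZ array 4 or KO array 1 or 2. These genes thus kept it only on dropping HZ array 2 (limma adjusted p = 0.321 and 0.239). Ptgds also lost it on dropping KO array 2 (0.658), where Enpp2 kept it (0.491). All 4 remained lower in KO whichever array was dropped.

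Of 20 lipid mediator receptors, only 7 had a tested probe, 2 higher and 5 lower with a median of -0.12, and 0 passed any threshold. Pla2r1, the receptor that binds secreted phospholipases A2, had its difference of 0.67 (SE 0.82, adjusted p = 0.824) from 1 array. It read 0.17, -0.15, 0.02 and -3.75 in HZ and -0.06, -0.59, -0.36 and -0.03 in KO, and without HZ replicate 4 the difference was -0.27. Lpar2, a receptor for lysophosphatidic acid, differed by 0.35 (SE 0.32, adjusted p = 0.774), by 0.010 under normexp and by 0.15 to 0.65 leaving out an array, the ends being those without HZ replicates 4 and 1. Tbxa2r, the thromboxane receptor, differed by -0.28 (SE 0.41, adjusted p = 0.854), by 0.070 under normexp and by 0.089 without HZ replicate 4. Both were near the background on some arrays.

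**Figure D4:**
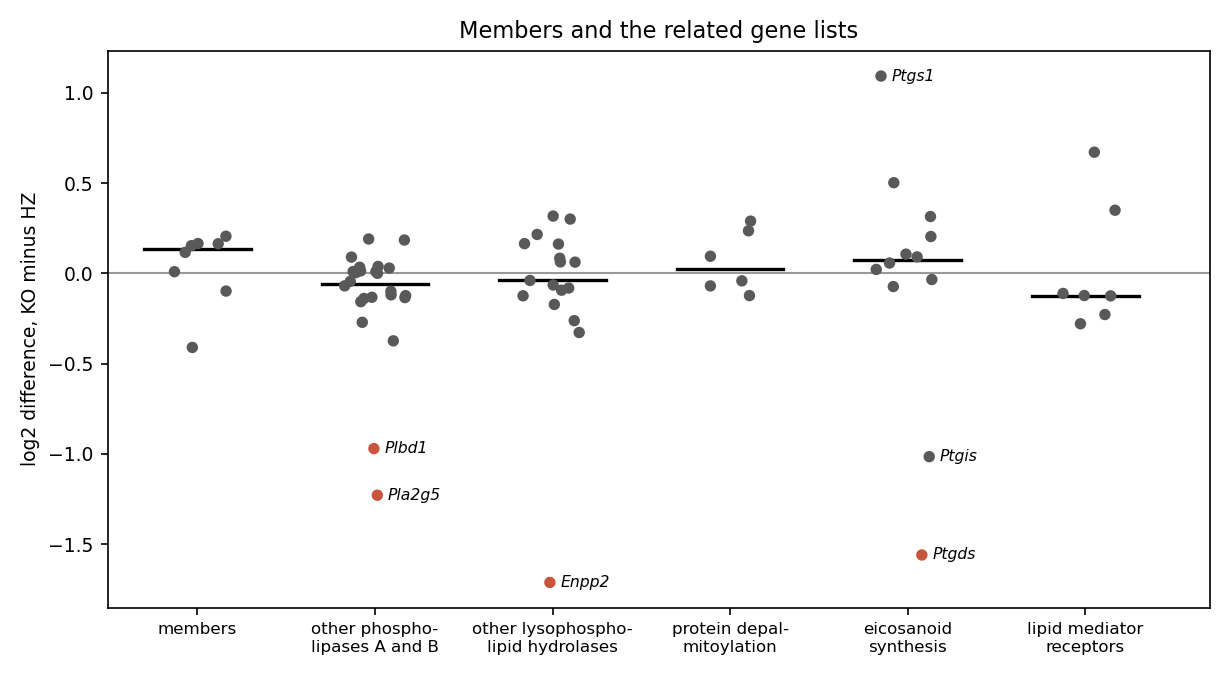
Differences (KO minus HZ, log2 units, vertical axis) of the reporting probes of the 8 tested members and of 5 lists of related genes. Each point is a gene, red where it passed a fold of 1.5 with an adjusted p under 0.5, black lines are list medians, and genes beyond 0.9 in size are named. The members lie between -0.41 and 0.21, and the 4 red genes, Pla2g5, Plbd1, Enpp2 and Ptgds, are all lower in KO.

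For the 3 members with the largest estimates, the genes whose reporting probe followed theirs most closely over the 8 arrays were taken from 14741 genes, as a description. For Pla2g6 these included Faap100 (r = 0.989) and Shisa2 (r = 0.982). For Pla2g15 they were Dlg2 (r = 0.975), Vegfb (r = 0.973) and Cadm3 (r = 0.968). Without the pair of arrays farthest from the median, r stayed between 0.868 and 0.976 for the genes named for Pla2g6 and Pla2g15. For Pnpla8 they were Paip2b (r = 0.987), Jmjd6 (r = 0.987) and Dip2b (r = 0.986), and there r came to 0.37, 0.41 and -0.0067 without KO replicates 4 and 2, so the likeness rested on those arrays. The probes share arrays and scaling, and a search over this many genes returns high values.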

How the data were processed

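Total RNA from isolated photoreceptor cells was hybridized in 1 colour (Cy3) to Agilent mouse 8 × 60K arrays. The deposited scanner files hold processed signal intensity from Agilent Feature Extraction 10.7.1.1 as the authors deposited it. The authors' own value table holds log2 values after a 75th percentile shift in GeneSpring. Its columns followed the scanner values centred on each probe's middle level (r of at least 0.999), so its scale and direction were settled and the exact baseline was not. The column medians were -0.065 to 0.20.

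From the intensity, log2 values minus each array's 75th percentile were computed, with outlier spots dropped and replicate spots averaged per probe. Probes well above background on at least 4 of 8 arrays, with at least 3 values a group, were fitted with limma 3.58.1 in R 4.3.3 (lmFit and eBayes, two-sided, Benjamini-Hochberg over 34303 probes). The script was tested on simulated data. The adjusted thresholds use fold and q-value limits named in the methods, and the unadjusted one was added here. The main comparison was unpaired, as in the methods. Replicate numbers, from the labels, marked shared slide columns, and deviations from the group means correlated at 0.172 to 0.337 between arrays of the same number and -0.337 to 0.117 otherwise, so the number was taken to pair arrays and used as a block in an alternative. Alternatives were the normalization, background correction, filter, test, probe rule and leaving out each array.

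The members, lists and tests were chosen with earlier results of these data known. The genes named are the 9 members, the 3 with the largest estimates and any past a threshold in each related list, the 3 most alike for 3 members, and Lpcat1. One gene that the rule names is not reported here. The array file names an older genome build, so gene coordinates are not given. Promoter windows are RefSeq's.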

Additional observations from a re-analysis of the deposited data

Results flagged for a closer look

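In 58 groups of 4 arrays, over the members' probes and the named genes of the related lists, 6 had an array whose gap to its nearest neighbour exceeded Dixon's 95% critical value as a share of the group's range. Chance would mark about 2.9 of 58, so these are values to look at and no more. Among the members, Pla2g4a stood apart on HZ replicate 4, at -4.22 against -7.72 to -7.42 on the other HZ arrays, and the reporting probe of Pnpla8 stood apart on KO replicate 4, at -0.45 against 1.40 to 1.61 on the other KO arrays. Among the related genes, Plaat1 on KO replicate 1 read -6.72 against -4.86 to -4.65 on the other KO arrays. HZ replicate 1 was also low for Plaat1, at -6.27 against -4.56 to -4.01, though not flagged. On neither of these replicate 1 arrays was the probe well above background. Pla2r1 on HZ replicate 4 read -3.75 against -0.15 to 0.17. Ptgis on KO replicate 2 read -4.47 against -4.82 to -4.79, and Ppt1 on KO replicate 4 read 2.32 against 2.21 to 2.23, both small gaps in tight groups.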

How the results depend on the processing

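At the 2 adjusted thresholds, 0 members passed under all 18 alternatives, and the members' median difference stayed within its spread in all 15 that were run for it. At an unadjusted p under 0.05 the count was 1 with quantile normalization, trend and robust eBayes, or the authors' values (Pla2g15 each time), 1 with normexp (Pla2g6), 2 with the methods' t-test, and 0 to 1 when leaving out an array (Pla2g15 without HZ replicate 2). With the replicate block no member passed (smallest adjusted p 0.439), while the probes at the looser threshold numbered 1167 in place of 357. That count was 41 without the filter on dim probes and 0 to 1734 when leaving out an array, the highest being that without HZ replicate 2. Leaving out HZ replicate 1 gave 1, KO replicate 1 gave 197, KO replicate 2 gave 57, and any of HZ replicate 3 and KO replicates 3 and 4 gave 0. At the stricter threshold 0 probes became 1 with quantile normalization, 17 with normexp, 2 with the methods' t-test and 3 with trend and robust eBayes. At the unadjusted threshold 2803 probes became 2825 with quantile normalization, 3416 with normexp and 3135 with the methods' t-test. They became 3062 with trend and robust eBayes, 2854 with the authors' values, and 2018 to 4997 when leaving out an array, the highest being that without HZ replicate 2. The 4 genes of the related lists at the looser threshold became 0 without the filter, 2 with the mean of a gene's probes, and 0 to 6 when leaving out an array. They became 6 with the block, which at that threshold changed no call on a named gene but those of Ptgs1 and Ptgis. The looser calls split 279 lower to 78 higher, and 217 to 119 with quantile normalization.

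Signs turned for Pla2g12a (-0.011 with the percentile taken over the always-detected probes, -0.061 to 0.064 leaving out an array), Pla2g15 (-0.11 with normexp), Pnpla6 (-0.056 to 0.21 leaving out an array), Pnpla8 (-0.61 to 0.076), Plaat1 (-0.85 to 0.12), Pla2r1 (-0.27 to 1.04) and Tbxa2r (0.070 with normexp, -0.61 to 0.089 leaving out an array), and with normexp for Abhd17c (-0.12) and Ppt1 (0.012). The cause was not tested. The groups of Pla2g6 stayed apart under all 4 other scalings, and those of Pla2g15 under quantile normalization and in the authors' values, but not with normexp or the other percentile. In the authors' values alone the groups of Lypla1 were apart too, narrowly, with the highest HZ array at -0.0013 and the lowest KO array at 0.0013. Normexp was run on the median signal and not on the mean signal, which was not used here.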
